A study of Sus scrofa with 13 samples.

Results

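The genes described here drive the division of cells: spindle motors of the kinesin family, centromere proteins, factors that copy DNA, the cyclins and kinases that time division, and proteins that condense chromosomes and cut the cell apart. They were chosen by name. A gene entered when its symbol was a KIF, CENP, MCM, CDC, CDCA, cyclin A, B or E, AURK, BUB1, PLK, TOP2 or NCAP symbol, or was ANLN, PCLAF or CDK1. The rule found 75 genes among 10283 named genes on the array. Names that only begin with the same letters, such as CDC42 and its partners, KIFAP3 and MCMBP, were left out (12 names). Where a gene had several probe sets, the set of probes that the array reads as 1 unit, the probe set with the highest mean was used.

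The study set muscle without intact dystrophin against normal muscle, in the biceps femoris of German Landrace pigs. The groups were DMD knockout (DMD KO) piglets at 2 days of age (n = 4), wild-type (WT) piglets at 2 days (n = 3), DMD KO pigs at 3 months (n = 3) and WT pigs at 3 months (n = 3), with 1 array per animal. DMD KO animals carried a DMD gene from which exon 52 was deleted. They were made by nuclear transfer from modified primary kidney cells, so they are clones. Their muscle was taken straight after they died, and WT animals were euthanised at matching ages. Genotype, cloning and manner of death therefore cannot be told apart in any genotype comparison.

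The arrays gave 21893 probe sets. Values ran from 2.81 to 13.8 and were read as log2 levels, so a difference of 1 stands for a doubling. Array medians lay between 7.32 and 7.38. WT replicate 3 at 2 days stood apart, with a mean correlation of 0.918 with the other arrays, where every other array had 0.943 to 0.964. The 4 measured muscle fibre markers (ACTA1, MYH1, MYH7 and MYLPF) averaged 11.5 to 12.3 per array, far above the array medians. DMD itself did not pass the test between genotypes at either age. The DMD probe set with the higher mean read 12.08, 12.30, 12.11 and 12.21 in DMD KO and 12.38, 12.29 and 11.53 in WT at 2 days, then 11.84, 11.65 and 11.53 in DMD KO and 11.87, 11.81 and 12.01 in WT at 3 months. The position of its probes relative to exon 52 is unknown here, so this is no check of the labels.

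Division follows a fixed order. DNA is first copied, with helicases of the MCM family opening the helix and the clamp PCNA holding the polymerase. CDK1 with its cyclins then starts mitosis, condensin and topoisomerase II pack the chromosomes, kinesins build and move the spindle, and the centromere ties each chromosome to it. Muscle fibres themselves do not divide. In growing or injured muscle the dividing cells are satellite cells, the stem cells of muscle, and the fibroblasts, vessel cells and leukocytes between the fibres. Several genes that carry a cell division name have other work, such as transport kinesins and CDC genes of splicing or transcription, and they are described separately.

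Many members were dim. The mean of 22 of the 75 members lay below the lowest 25th percentile of an array (6.53), and 31 lay above the median probe set. A probe set near the floor of the array can understate a change, which was not tested here. Levels of different genes are not compared.

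At 2 days DMD KO muscle held lower levels of spindle motors, of condensation and cytokinesis genes and of PCLAF, and higher levels of a smaller, mixed set. Of the 75 members, 22 passed the test (limma, adjusted p under 0.05 over all probe sets), 15 lower and 7 higher in DMD KO. Over all probe sets 9.93% passed, 2.85% lower and 7.09% higher, so 15 of 75 is well above the lower share of all probe sets and 7 of 75 (9.33%) is near the higher one. The groups did not overlap for 23 members with lower and 13 with higher values in DMD KO, where they did not for 10.5% and 14.1% of all probe sets. The median difference over the members was -0.22 on the log2 scale, against -0.02 over all probe sets. It was -0.13 without WT replicate 2 and -0.14 without WT replicate 3, and 0.02 over the 31 members left by a filter on dim probe sets. All 10 mitotic kinesins had a difference below 0, and 5 of them passed. In the condensation, segregation and cytokinesis group 5 of 9 were lower and 1 was higher. The transport and other kinesins had 1 of 13 called, a rise.

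**Figure D1:**
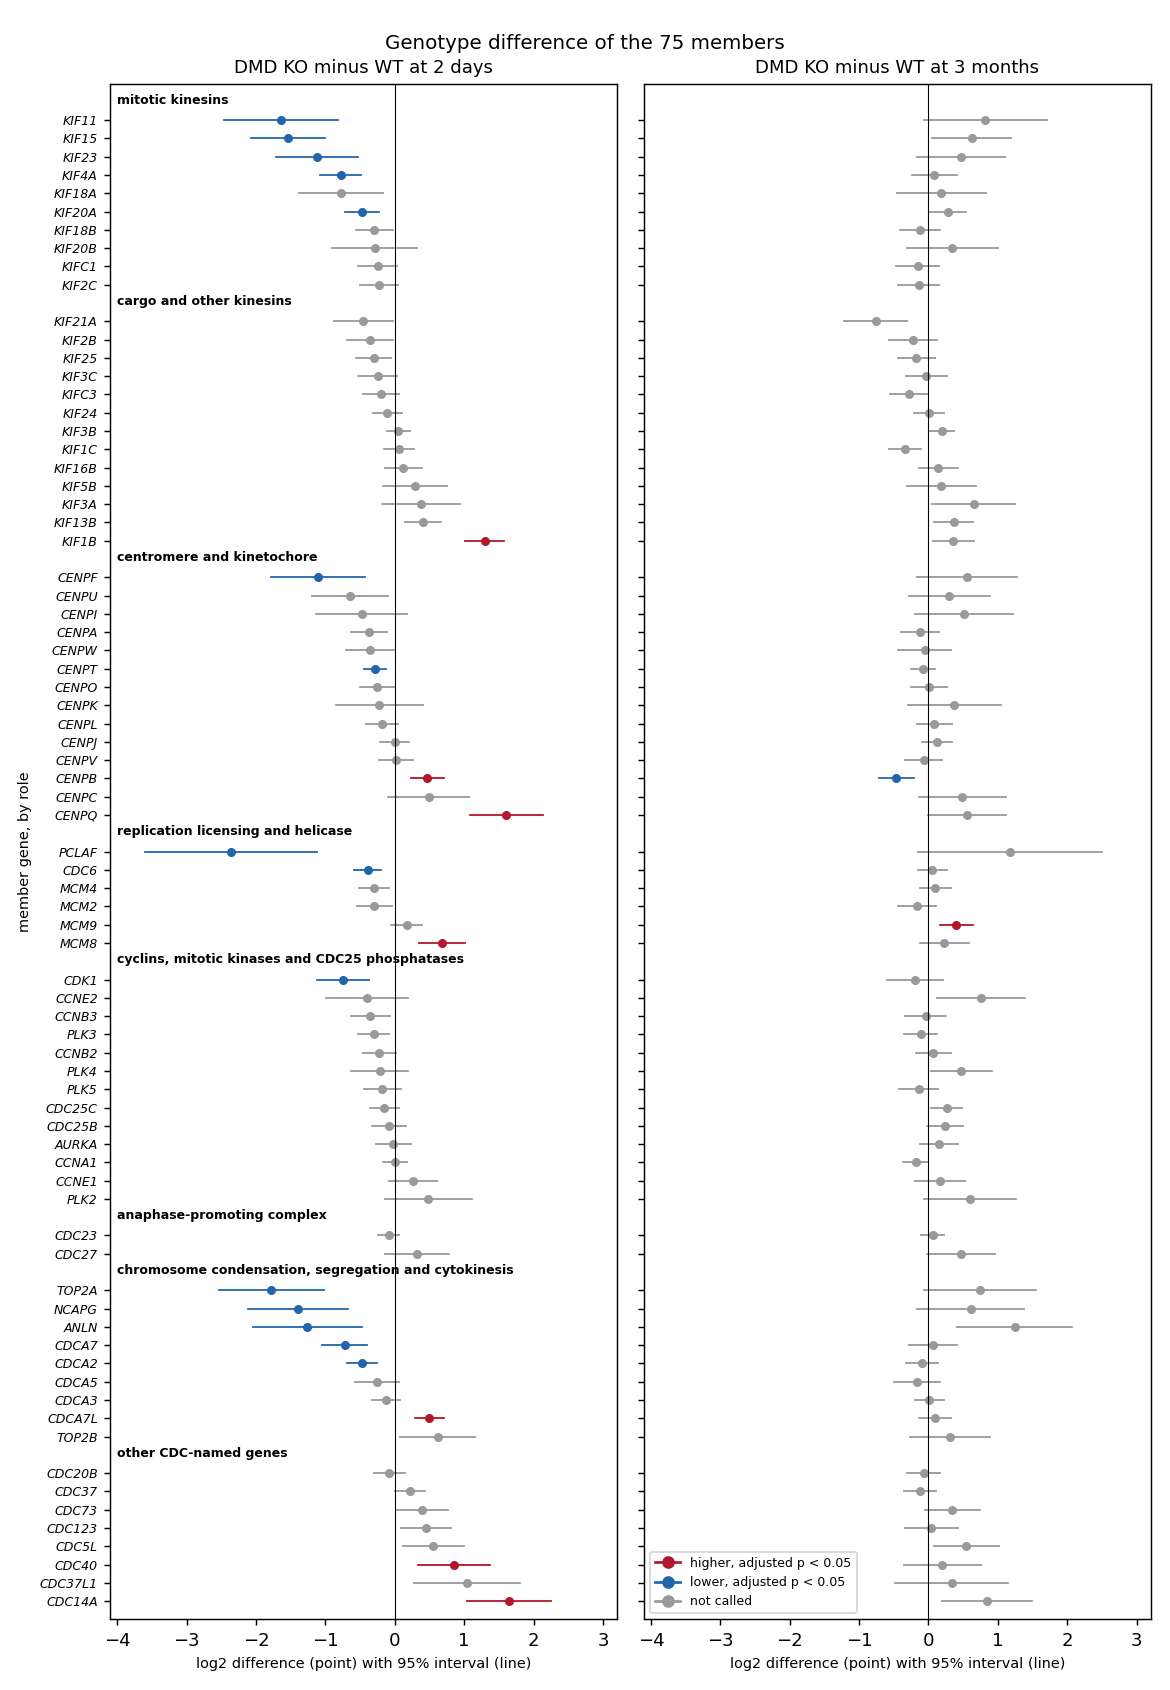
Genotype difference of each of the 75 members in log2 units (horizontal axis; point, with its 95% interval as a line), DMD KO minus WT, at 2 days on the left and at 3 months on the right, grouped by role. At 2 days the mitotic kinesins all lie left of 0 (15 members lower and 7 higher in colour), and at 3 months only CENPB and MCM9 are coloured.

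Among the spindle motors, KIF11 pushes the spindle poles apart. Its level was 5.84, 5.32, 5.60 and 5.19 in DMD KO and 6.86, 7.78 and 6.74 in WT at 2 days. Every DMD KO animal lay below every WT animal, and the level was 3.13-fold lower (-1.64 ± 0.38, SE, adjusted p = 0.0188). KIF15, which helps to hold the spindle bipolar, read 5.90, 5.51, 5.95 and 5.82 in DMD KO and 7.25, 7.70 and 7.06 in WT. The DMD KO values were close together and more than 1 log2 unit below the lowest WT value (2.91-fold lower, -1.54 ± 0.24, SE, adjusted p = 0.00259). KIF23, a motor of the cleavage furrow, was at 6.69, 6.03, 6.37 and 6.31 in DMD KO and at 7.43, 7.83 and 7.14 in WT. It was 2.17-fold lower, again without overlap (-1.12 ± 0.27, SE, adjusted p = 0.0239).

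KIF4A, a motor that rides on chromosomes, read 5.86, 5.55, 5.90 and 5.79 in DMD KO and 6.38, 6.79 and 6.50 in WT (-0.78 ± 0.14, SE, adjusted p = 0.00479). KIF20A, which carries mitotic regulators to the middle of the spindle, read 7.21, 7.02, 7.15 and 6.97 in DMD KO and 7.45, 7.74 and 7.49 in WT (-0.47 ± 0.11, SE, adjusted p = 0.0216). Both had all DMD KO values under all WT values. The other 5 motors did not pass: KIF18A, which trims microtubule ends, had a difference of -0.77 (adjusted p = 0.0961), KIF18B one of -0.29 (adjusted p = 0.145), and KIF20B, KIFC1 and KIF2C lay between -0.29 and -0.23. Over these 10 genes the mean level per array was 6.59, 6.32, 6.52 and 6.37 in DMD KO and 7.05, 7.46 and 7.06 in WT.

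The largest fall of a member was that of PCLAF, a partner of the replication clamp PCNA. Its level was 6.06, 5.65, 5.69 and 4.93 in DMD KO and 7.46, 8.72 and 7.67 in WT at 2 days. No values overlapped, and the level was 5.15-fold lower (-2.36 ± 0.57, SE, adjusted p = 0.0229). CDC6, which loads the MCM helicase onto DNA, was lower by a smaller step (-0.39, adjusted p = 0.0177). CDC6 is a member by its name, but was picked for description after its values were seen. Its levels were 5.99, 5.99, 6.30 and 6.06 in DMD KO and 6.42, 6.43 and 6.59 in WT. MCM2 and MCM4, subunits of the replicative helicase, differed by -0.29 (adjusted p = 0.125) and -0.30 (adjusted p = 0.0711) without passing.

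MCM8, a helicase of DNA repair by recombination, went the other way. It read 6.89, 6.90, 7.10 and 7.09 in DMD KO and 6.35, 6.59 and 5.98 in WT (0.68 ± 0.15, SE, adjusted p = 0.0146). All DMD KO values were higher, and WT replicate 3 was the lowest. Without that WT animal the difference was 0.52 with an adjusted p of 0.057. Its partner MCM9 differed by 0.17 (adjusted p = 0.284).

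TOP2A, a topoisomerase that untangles sister chromosomes in cycling cells, read 7.74, 7.28, 7.68 and 7.59 in DMD KO and 9.32, 10.00 and 8.75 in WT at 2 days. The DMD KO animals lay close together and at least 1 log2 unit under the lowest WT animal (3.43-fold lower, -1.78 ± 0.35, SE, adjusted p = 0.00818). NCAPG, a condensin subunit, read 6.03, 5.43, 5.63 and 5.33 in DMD KO and 6.80, 7.53 and 6.68 in WT (2.64-fold lower, adjusted p = 0.0211). ANLN, the anillin of the cytokinetic ring, read 7.01, 6.08, 6.50 and 6.55 in DMD KO and 7.72, 8.53 and 7.14 in WT (2.39-fold lower, adjusted p = 0.0451). Neither gene's groups overlapped, though for ANLN DMD KO replicate 1 lay just under WT replicate 3.

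CDCA7, a partner of the chromatin remodeller HELLS, read 6.84, 6.90, 7.03 and 6.43 in DMD KO and 7.49, 7.71 and 7.37 in WT (-0.72 ± 0.15, SE, adjusted p = 0.0105). CDCA2, which brings a phosphatase to chromosomes as mitosis ends, differed by -0.48 (adjusted p = 0.0117). CDCA3 and CDCA5, the cohesin factor sororin, did not pass at -0.13 and -0.25. A pair of genes of the group lay above 0. CDCA7L, a relative of CDCA7, read 8.58, 8.90, 8.49 and 8.73 in DMD KO and 8.23, 8.15 and 8.14 in WT, a rise of 0.50 (adjusted p = 0.00885). The other CDCA7L probe set differed by 0.42 and did not pass (adjusted p = 0.0523). TOP2B, the topoisomerase that non-dividing cells also use, differed by 0.62 (95% interval 0.08 to 1.16, adjusted p = 0.132) and by 0.26 without WT replicate 3.

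Of the 13 cyclins, mitotic kinases and CDC25 phosphatases, CDK1 alone passed. CDK1, the kinase that starts mitosis, read 6.11, 5.80, 6.06 and 5.81 in DMD KO and 6.76, 6.28 and 7.05 in WT (-0.75 ± 0.17, SE, adjusted p = 0.018). Here WT replicate 2, the highest animal for most other members, was the lowest of the WT animals. The other CDK1 probe set differed by -0.51 (adjusted p = 0.116). The centrosome kinase AURKA differed by -0.02 (adjusted p = 0.921), CDC25B, a phosphatase that activates CDK1, by -0.09 (adjusted p = 0.638), and CCNB2, a mitotic cyclin, by -0.22 (adjusted p = 0.211). CCNE2, a cyclin of the start of DNA copying, differed by -0.40 (adjusted p = 0.354). The group's median was -0.18. CDC23 and CDC27, subunits of the complex that ends mitosis by destroying cyclins, differed by -0.09 and 0.32 and did not pass.

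The centromere group was split, with 2 of 14 lower and 2 higher. CENPF, a kinetochore protein made late in the cycle, read 6.77, 5.96, 6.45 and 6.30 in DMD KO and 7.25, 8.09 and 7.09 in WT (2.15-fold lower, adjusted p = 0.0427). CENPT, which links centromeric DNA to the outer kinetochore, differed by -0.28 (adjusted p = 0.031). This member was likewise picked for description after its values were seen. CENPQ, of the complex that sits on centromeres through the whole cycle, went up, at 6.71, 6.52, 6.57 and 7.36 in DMD KO and 5.48, 5.38 and 4.68 in WT. It was 3.05-fold higher with more than 1 log2 unit between the groups (1.61 ± 0.24, SE, adjusted p = 0.002). CENPU, of the same complex, differed by -0.65 and did not pass (adjusted p = 0.119).

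CENPB, which binds satellite repeats of centromeres, read 6.80, 6.50, 6.58 and 6.71 in DMD KO and 5.99, 6.17 and 6.37 in WT, a rise of 0.47 (adjusted p = 0.0177). CENPA, the histone that marks the centromere, had a difference of -0.37 (adjusted p = 0.0663). CENPC, which anchors the kinetochore, and CENPV differed by 0.49 (adjusted p = 0.259) and 0.02 (adjusted p = 0.918). For CENPC the difference was 0.16 without WT replicate 3.

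**Figure D2:**
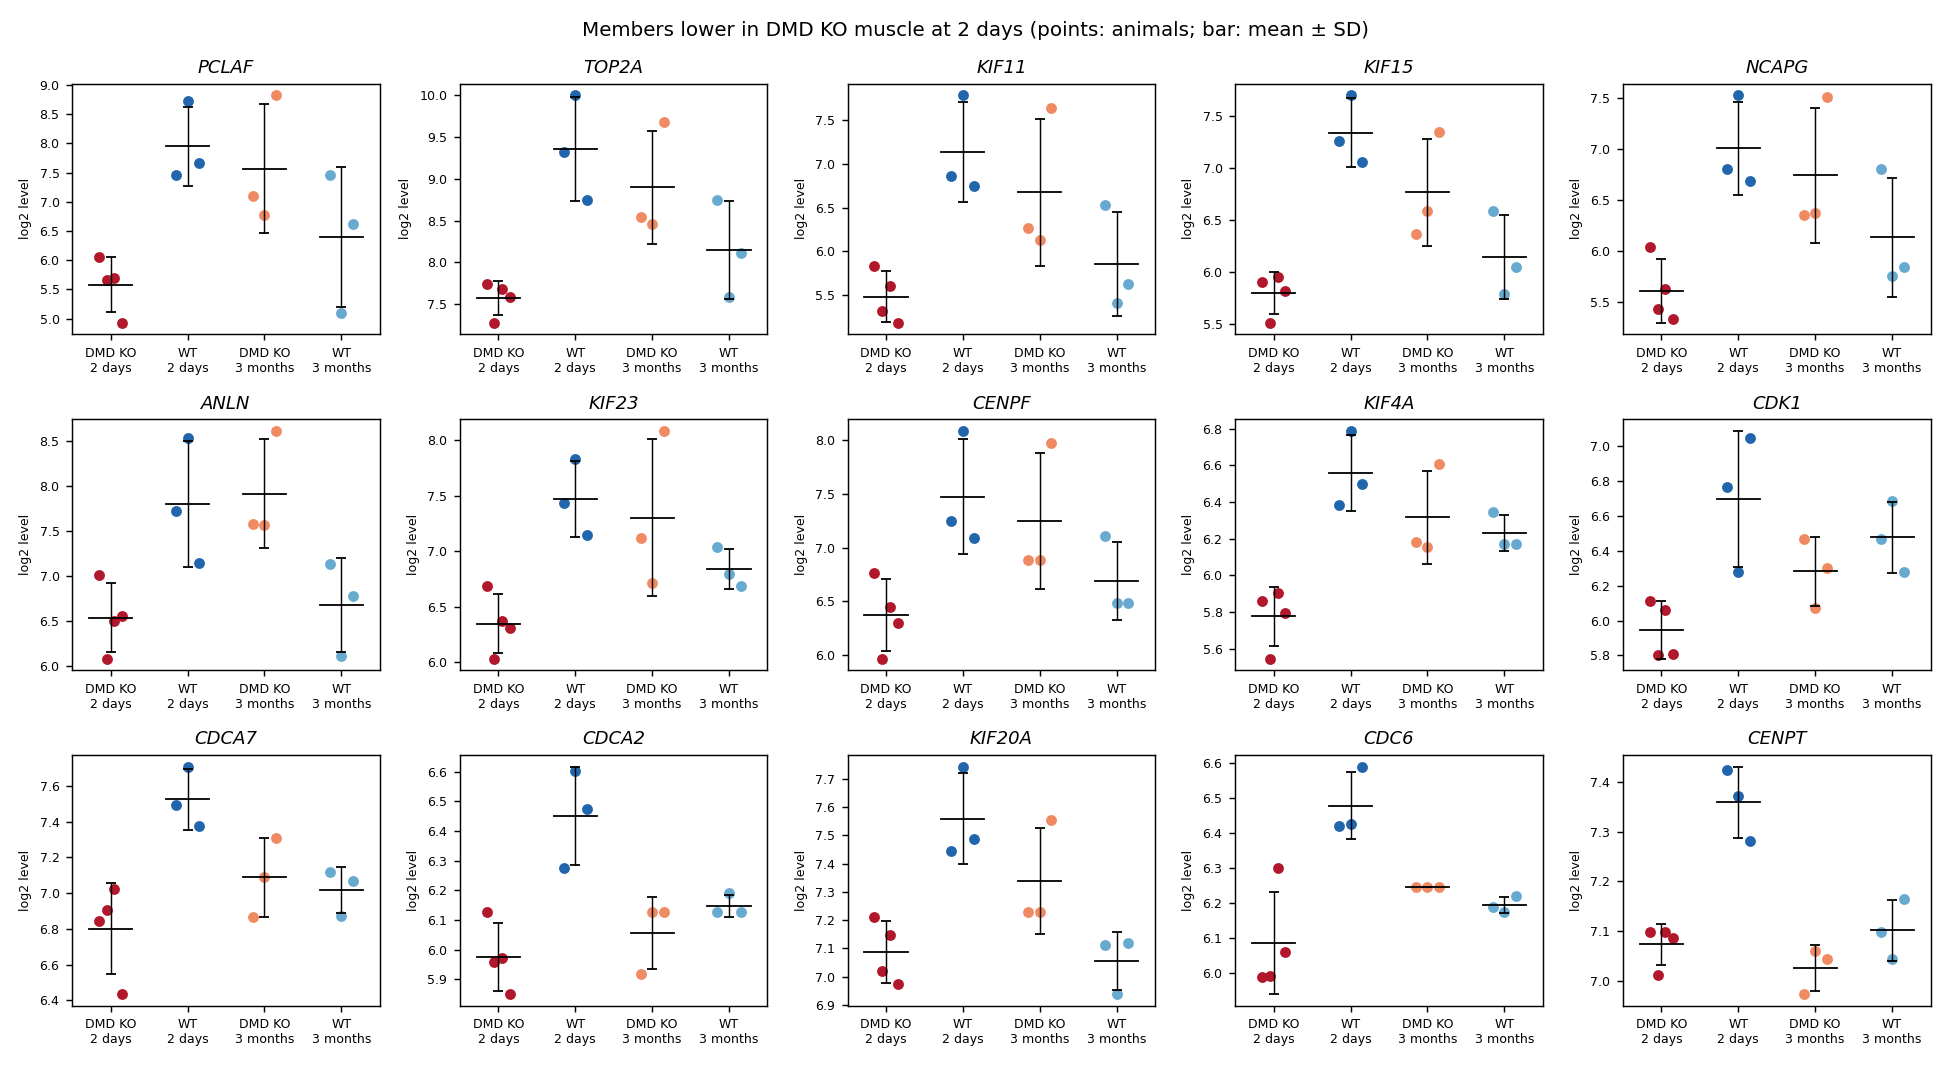
Log2 level (vertical axis) of the 15 members that were lower in DMD KO muscle at 2 days, 1 panel per gene, with a point per animal and the group mean ± SD (n = 4, 3, 3 and 3) for DMD KO and WT at 2 days and DMD KO and WT at 3 months. In every panel the 4 DMD KO points at 2 days lie under the 3 WT points, and in most panels 1 DMD KO animal at 3 months stands above its group.

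Of the 7 rises, CENPQ, CENPB, CDCA7L and MCM8 are given above, and the other 3 lay among the transport kinesins and the other CDC genes. KIF1B, a motor that carries mitochondria and vesicles, had the lowest adjusted p of all members. It read 9.48, 9.22, 9.48 and 9.36 in DMD KO and 8.31, 8.23 and 7.74 in WT (2.45-fold higher, 1.29 ± 0.13, SE, adjusted p = 0.00023). The DMD KO values were close together and nearly 1 log2 unit above the highest WT value. CDC14A, a phosphatase, read 8.19, 8.85, 8.65 and 9.18 in DMD KO and 7.532, 6.996 and 6.677 in WT. It was 3.13-fold higher, the largest rise of a member (1.65 ± 0.28, SE, adjusted p = 0.00392). CDC40, a splicing factor, read 7.63, 7.47, 7.77 and 8.03 in DMD KO and 7.20, 7.16 and 6.25 in WT (0.86 ± 0.24, SE, adjusted p = 0.0417). Much of that difference came from WT replicate 3, without which it was 0.55 (adjusted p = 0.161).

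KIF5B, the conventional kinesin of cargo transport, differed by 0.29 (95% interval -0.18 to 0.76, adjusted p = 0.393). KIF13B, a vesicle motor, differed by 0.40 (adjusted p = 0.0505) and KIF21A by -0.45 (adjusted p = 0.158). Among the other CDC genes, CDC5L of the spliceosome differed by 0.55 (adjusted p = 0.101), CDC73 of a transcription elongation complex by 0.39 (adjusted p = 0.155) and CDC37L1, a helper of the chaperone HSP90, by 1.04 (adjusted p = 0.0795). Without WT replicate 3 these differences were 0.25 for CDC5L, 0.15 for CDC73 and 0.46 for CDC37L1. The median of the 8 other CDC genes was 0.50, and 0.26 without WT replicate 3. For the 10 mitotic kinesins the median was -0.62, and -0.39 without WT replicate 2.

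**Figure D3:**
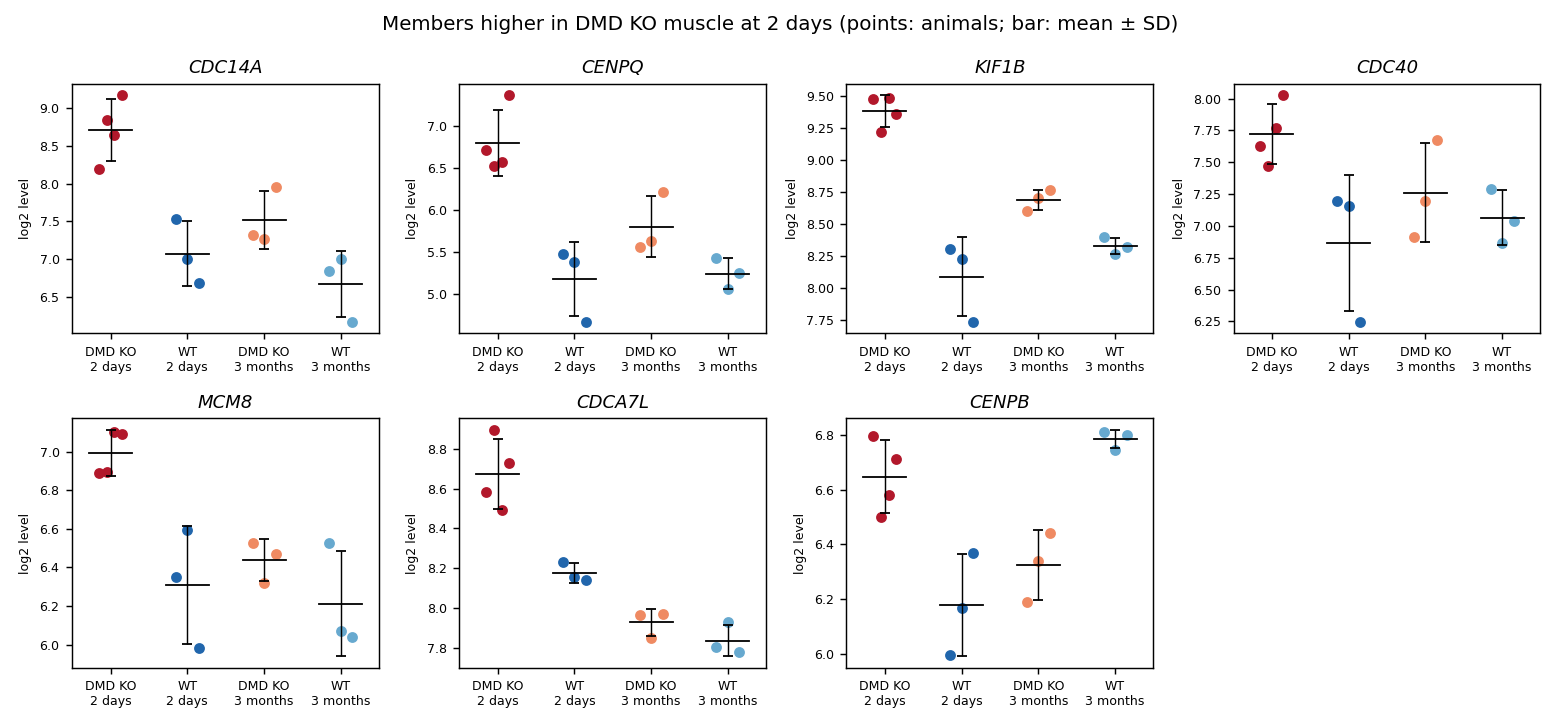
Log2 level (vertical axis) of the 7 members that were higher in DMD KO muscle at 2 days, drawn as points per animal with the group mean ± SD (n = 4, 3, 3 and 3), for DMD KO and WT at 2 days and DMD KO and WT at 3 months. All 4 DMD KO points at 2 days lie above the 3 WT points in every panel, WT replicate 3 is the lowest of its group in 6 of the 7, and CENPB is the panel where WT is the higher group at 3 months.

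The 2-day calls depended in part on single animals. Whichever of the 13 arrays was left out, 9 of the 22 stayed called, namely CDC14A, CDCA2, CDCA7, CDCA7L, CENPQ, KIF15, KIF1B, KIF4A and TOP2A. Of the 15 falls, 5 stayed called without DMD KO replicate 2, 5 without DMD KO replicate 4, 8 without WT replicate 2, 10 without DMD KO replicate 3, 10 without WT replicate 1, 13 without WT replicate 3 and 14 without DMD KO replicate 1, with adjusted p up to 0.113. Over all probe sets 623 were lower with every array kept. That number was 351 without DMD KO replicate 2, 345 without DMD KO replicate 3 and 315 without DMD KO replicate 4. Without WT replicate 2 it rose to 981, while the falls among the members dropped. Of the 7 rises, CDC40, MCM8 and CENPB lost their calls without 1 or more arrays (adjusted p up to 0.161).

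The animals of a group kept much the same order across the 15 lower genes. WT replicate 2 was the highest WT animal at 2 days in 12 of the 15, and its mean over them was 7.67, against 7.22 and 7.14 for WT replicates 1 and 3. DMD KO replicate 1 was highest in its group in 11. In DMD KO the mean of 10 of these genes lay below the lowest 25th percentile of an array, where 2 did in WT.

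A wider list of proliferation genes held lower levels in newborn DMD KO muscle on the same arrays. The list was fixed with earlier results of these data known, so it is not independent support. Of 51 measured genes of that list (replication, spindle and repair genes outside the member rule), 18 were lower and 0 higher (limma), where 2.85% of all probe sets were lower and 7.09% higher. An unadjusted p under 0.05 (limma) was found for 32 of the 51 genes and for 6105 of the 21893 probe sets. The median of the 51 genes was -0.45. LMNB1, the lamin of the nuclear envelope of growing cells, read 7.67, 7.10, 7.56 and 7.16 in DMD KO and 8.46, 8.94 and 8.41 in WT (-1.23 ± 0.20, SE, adjusted p = 0.00327). No values overlapped. The kinetochore genes NDC80 and NUF2 had differences of -1.59 (adjusted p = 0.0213) and -1.42 (adjusted p = 0.0346). DLGAP5 and TPX2, both needed to build the spindle, had differences of -1.40 (adjusted p = 0.0302) and -1.04 (adjusted p = 0.0459). CKAP2L and CKAP2, proteins of spindle microtubules, fell by 1.13 (adjusted p = 0.00631) and 1.05 (adjusted p = 0.0047). LMNB1, CKAP2 and CKAP2L kept their calls whichever array was left out, and NDC80, NUF2, DLGAP5 and TPX2 lost theirs without 3 to 9 of the arrays (adjusted p up to 0.111).

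Genes that brake the cycle or act in its first gap phase were mixed, with 3 of 17 measured higher and 2 lower, against the same shares of 7.09% and 2.85% over all probe sets. CDKN1A, the inhibitor p21, read 9.07, 9.16, 9.29 and 9.26 in DMD KO and 8.99, 8.59 and 8.68 in WT at 2 days (0.44, adjusted p = 0.0308). The nearest animals of the genotypes were close, and 5 single arrays (DMD KO replicates 2, 3 and 4, WT replicates 2 and 3) each ended the call when left out, with adjusted p up to 0.0997. Of 8 processing alternatives 5 ended it too, and quantile normalization gave 0.26 (adjusted p = 0.167). BTG1, an antiproliferative factor, rose by 0.56 (adjusted p = 0.0271), and RB1, the retinoblastoma protein, by 0.81 (adjusted p = 0.0367). Without WT replicate 3 the difference of RB1 was 0.45 (adjusted p = 0.0672), and with quantile normalization that of BTG1 was 0.37 (adjusted p = 0.0825). CDKN2C, another inhibitor of the cycle, fell by 0.52 (adjusted p = 0.0102) and the cyclin CCND2 fell by 0.43 (adjusted p = 0.0231). Of these 5 genes, CDKN2C kept its call whichever array was left out, and the other 4 lost theirs without 4 to 8 arrays (adjusted p up to 0.102).

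Fibroblast markers were lower at 2 days together with these genes. All 7 measured fibroblast markers of 8 listed (DCN, LUM, COL1A1, COL3A1, POSTN, FBN1 and THY1) were lower in DMD KO at 2 days, with a median of -1.26. Their mean per array ran from 9.18 to 9.69 in DMD KO and from 10.78 to 10.84 in WT. In whole muscle, fewer cells of a type and less RNA per cell cannot be told apart, and the part of these cells in the cell cycle differences was not tested. Of the 5 satellite cell and myoblast markers measured (MYOG, MYF6, CALCR, VCAM1 and NCAM1, of 12 listed), 1 was higher and 0 were lower. Their array means ran from 7.50 to 7.68 in DMD KO and from 7.28 to 7.55 in WT. PAX7, MYF5 and MYOD1 were listed and not measured. The macrophage (4 of 7 measured) and T and NK cell markers (7 of 7) had 0 called. Endothelial markers had 1 of 4 higher, and the erythroid and adipocyte markers, 2 measured of each, had 0 called. Muscle fibre markers had 1 of 4 higher and 1 lower.

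**Figure D4:**
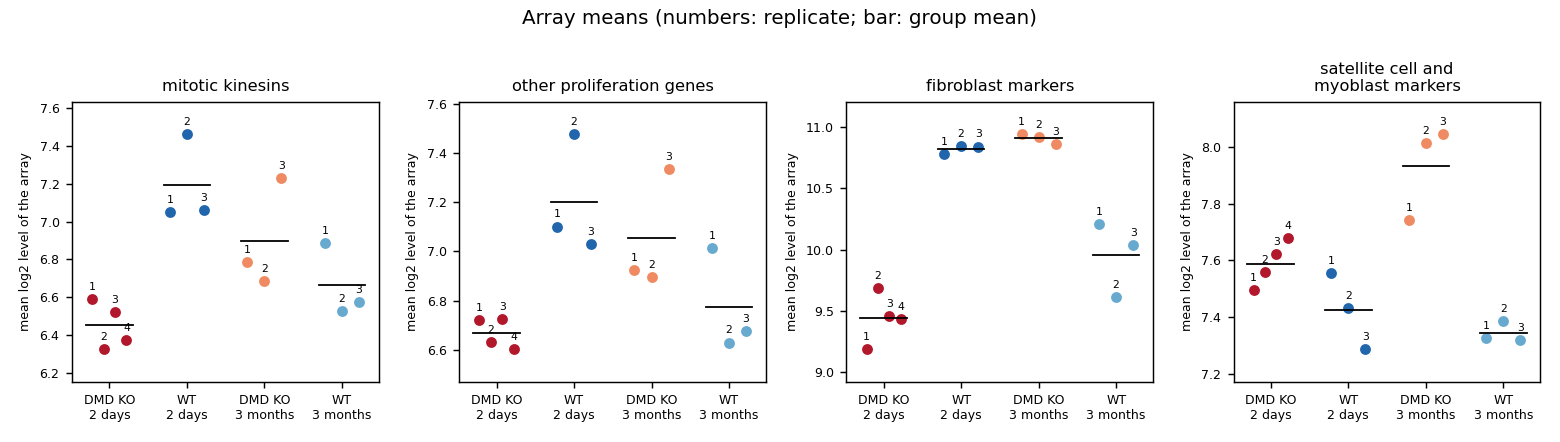
Mean log2 level per array (vertical axis) of the 10 mitotic kinesins, the 51 other proliferation genes, the 7 fibroblast markers and the 5 satellite cell and myoblast markers, with a numbered point per animal and a bar at the group mean. In the first 3 panels DMD KO lies below WT at 2 days with no overlap (9.18 to 9.69 against 10.78 to 10.84 for fibroblast markers), and at 3 months the fibroblast markers lie higher in DMD KO.

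At 3 months none of the 15 genes that were lower in DMD KO at 2 days passed the test. Of the 75 members 2 passed (limma), MCM9 higher and CENPB lower, where 5.98% of all probe sets passed, 4.62% higher and 1.36% lower. An unadjusted p under 0.05 (limma) was found for 18 of the 75 members and for 4161 of the 21893 probe sets. The groups did not overlap for 16 members with higher and 6 with lower values in DMD KO, where they did not for 12.9% and 10.1% of all probe sets. The median over the members was 0.14, against -0.05 over all probe sets, and was 0.07 without DMD KO replicate 3 and 0.09 without WT replicate 2. Of the 15 members lower at 2 days, 12 had a difference above 0 at 3 months, as had 51 of all 75 members and 9004 of the 21893 probe sets. No member passed in both genotype comparisons in the same direction, and the comparisons share no arrays.

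KIF15 read 6.36, 6.58 and 7.34 in DMD KO and 6.58, 5.79 and 6.05 in WT at 3 months, a difference of 0.62 (adjusted p = 0.22). TOP2A read 8.55, 8.46 and 9.68 in DMD KO and 8.74, 7.58 and 8.12 in WT, a difference of 0.75 (95% interval -0.06 to 1.55, adjusted p = 0.304). For both, 1 or more WT animals lay within the DMD KO range. PCLAF read 7.10, 6.77 and 8.83 in DMD KO and 7.46, 5.09 and 6.62 in WT, a difference of 1.17 (95% interval -0.15 to 2.50, adjusted p = 0.326). KIF11 differed by 0.82 (95% interval -0.06 to 1.70, adjusted p = 0.3).

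ANLN had the largest difference of a member at this age and did not pass. It read 7.57, 7.56 and 8.61 in DMD KO and 7.13, 6.11 and 6.78 in WT, without overlap (1.24 ± 0.38, SE, adjusted p = 0.087). KIF4A, CDCA7 and CDK1 differed by 0.09, 0.07 and -0.20. CCNE2 differed by 0.76 (95% interval 0.13 to 1.39, adjusted p = 0.174). The mean of the mitotic kinesins per array was 6.79, 6.69 and 7.23 in DMD KO and 6.89, 6.53 and 6.57 in WT.

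Single animals carried much of the spread at 3 months. DMD KO replicate 3 was the highest of its group in 11 of the 15 genes that were lower at 2 days, with a mean of 7.52 over them, against 6.80 and 6.76 for the other 2. WT replicate 1 was the highest WT animal in 10 of the 15, at 6.92 against 6.34 and 6.56.

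The 2 calls at 3 months were small. CENPB read 6.19, 6.34 and 6.44 in DMD KO and 6.81, 6.75 and 6.80 in WT (-0.46 ± 0.12, SE, adjusted p = 0.0327). All WT animals were higher, the reverse of 2 days. MCM9 read 7.34, 7.19 and 7.55 in DMD KO and 6.80, 6.95 and 7.12 in WT (0.40 ± 0.11, SE, adjusted p = 0.048), again without overlap. The call of CENPB ended when any of the 6 animals of this age was left out (adjusted p up to 0.117), and that of MCM9 ended without 10 of the 13 arrays (adjusted p up to 0.204, without DMD KO replicate 3). In a fit of the 6 arrays of this age alone, neither passed (adjusted p = 0.0574 for CENPB and 0.164 for MCM9).

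Of the transport kinesins, KIF21A read 7.70, 7.71 and 7.78 in DMD KO and 9.02, 8.28 and 8.18 in WT, a difference of -0.76 (95% interval -1.22 to -0.31, adjusted p = 0.0527). The other probe set of the same gene passed with a difference of -0.68 (adjusted p = 0.0486). KIF1B differed by 0.36 (adjusted p = 0.168), CDC14A by 0.84 (adjusted p = 0.134) and CENPQ by 0.56 (adjusted p = 0.268). CDC5L, CDC27 and PLK2, an inducible kinase of the Polo family, differed by 0.54, 0.47 and 0.60 without passing.

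In the proliferation list 1 of 51 genes passed at 3 months, DNMT1, the enzyme that copies DNA methylation after replication. DNMT1 read 7.77, 7.73 and 8.13 in DMD KO and 7.34, 6.59 and 6.90 in WT (0.93 ± 0.17, SE, adjusted p = 0.00643), with all DMD KO animals higher. It kept its call whichever array was left out. The list's median was 0.25. Of the brake and first gap phase genes 2 of 17 were higher and 0 lower, where 4.62% and 1.36% of all probe sets were. CDKN1A read 8.89, 8.90 and 9.13 in DMD KO and 8.38, 8.48 and 8.23 in WT (0.61 ± 0.12, SE, adjusted p = 0.01), and BTG1 rose by 0.61 (adjusted p = 0.0312). The CDKN1A call ended without DMD KO replicate 3 or WT replicate 3 (adjusted p up to 0.0533), and that of BTG1 without DMD KO replicates 2 or 3 or WT replicates 1 or 2 (adjusted p up to 0.137) and under 3 of 8 processing alternatives.

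Of the fibroblast markers, 5 of 7 were higher in DMD KO at 3 months (median 0.73), with array means from 10.86 to 10.94 in DMD KO and from 9.62 to 10.21 in WT. Of the satellite cell and myoblast markers 2 of 5 were higher (7.74 to 8.05 in DMD KO and 7.32 to 7.39 in WT), as were 2 of 4 macrophage markers (7.45 to 7.94 in DMD KO and 6.74 to 6.98 in WT).

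Changes with age were tested within each genotype, on arrays that the genotype comparisons also use. In WT muscle 3 of 75 members passed, CENPB higher and KIF15 and KIF20A lower at 3 months, where 2.89% of all probe sets passed, 1.71% higher and 1.18% lower. KIF15 was lower by 1.20 on the log2 scale at 3 months in WT (-1.20 ± 0.26, SE, adjusted p = 0.0291) and KIF20A differed by -0.50 (adjusted p = 0.0446). TOP2A differed by -1.21 without passing (adjusted p = 0.127). CENPB rose by 0.61 (adjusted p = 0.0136). None of the 3 calls held with every array in turn left out: KIF15 lost its call without WT replicate 1 or 2 at 2 days or WT replicate 2 or 3 at 3 months, CENPB without WT replicate 1 at 2 days or WT replicate 3 at 3 months, and KIF20A without 12 of the 13 arrays. The median over the members was -0.09, and -0.14 without WT replicate 3 at 2 days. The probe set used for KIF21A differed by 0.84 in WT without passing. The other probe set of that gene, which is not counted among the members, passed with a rise of 0.84 (adjusted p = 0.0289).

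In DMD KO muscle 9 of 75 passed, 4 higher and 5 lower at 3 months, where 8.04% of all probe sets passed (4.47% higher and 3.57% lower). The rises were ANLN (1.38, adjusted p = 0.033), TOP2A (1.32, adjusted p = 0.0348), KIF15 (0.97 ± 0.24, SE, adjusted p = 0.0279) and KIF4A (0.54, adjusted p = 0.0286). None of these 4 stayed called without DMD KO replicate 3 at 3 months (adjusted p up to 0.154), or without DMD KO replicate 2 or 4 at 2 days, and 1 or 2 of them stayed called without each of the other 4 DMD KO animals. The falls were in genes that stood high in newborn DMD KO muscle, CDC14A (-1.20, adjusted p = 0.0172), CENPQ (-0.99, adjusted p = 0.024), CDCA7L (-0.75, adjusted p = 0.000494), KIF1B (-0.70, adjusted p = 0.00418) and MCM8 (-0.56, adjusted p = 0.0409). The DMD KO arrays at 2 days also entered the genotype comparison of that age, so these rises and falls are not independent of it. Of the 9, CDCA7L and KIF1B kept their calls whichever array was left out. CDC14A and CENPQ lost theirs without DMD KO replicate 4 at 2 days or DMD KO replicate 1 or 2 at 3 months, and MCM8 without any single DMD KO animal or WT replicate 1 at 2 days.

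All 7 fibroblast markers rose with age in DMD KO (median 1.64) and 3 of the 7 fell in WT (median -0.69). Other markers also changed in DMD KO. Rises were called for 3 of 7 T and NK cell, 2 of 5 satellite cell and myoblast, 2 of 4 macrophage and 1 of 4 muscle fibre markers. Falls were called for 2 of 4 endothelial markers. In WT 1 of 7 T and NK cell and 1 of 4 muscle fibre markers rose, and 1 of 5 satellite cell and myoblast markers fell. In the proliferation list LMNB1 (1.07, adjusted p = 0.0053) and DLGAP5 (1.29, adjusted p = 0.0454) rose with age in DMD KO, and DNMT1 fell in WT (-0.92, adjusted p = 0.0132). LMNB1 kept its call whichever array was left out, DNMT1 lost it without WT replicate 3 at 3 months (adjusted p = 0.0502), and DLGAP5 lost it without any of 8 arrays (adjusted p up to 0.197). CCNG1, a cyclin induced by p53, was the brake list's call in WT, a rise of 0.79 (adjusted p = 0.0287) that lost its call without WT replicate 1 or 3 at 3 months (adjusted p up to 0.107). In DMD KO the brake list had 0 called (limma). An unadjusted p under 0.05 (limma) was found there for 2 of the 17 genes and for 3972 of the 21893 probe sets.

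Whether the genotype difference itself changed with age was tested as an interaction, the difference at 3 months minus that at 2 days. It passed for 11 of 75 members, 9 above 0 and 2 below, where 5.05% of all probe sets passed (3.06% above 0 and 1.99% below). The 9 were PCLAF (3.54 ± 0.84, SE, adjusted p = 0.0286), TOP2A (2.53, adjusted p = 0.0127), ANLN (2.50, adjusted p = 0.0161), KIF11 (2.47, adjusted p = 0.0229), KIF15 (2.16 ± 0.36, SE, adjusted p = 0.00432), NCAPG (2.01, adjusted p = 0.0323), KIF23 (1.58, adjusted p = 0.0404), KIF4A (0.87, adjusted p = 0.0257) and KIF20A (0.75, adjusted p = 0.0192). The interaction shares its arrays with the genotype comparisons. For CENPF it was 1.66 (adjusted p = 0.0568), for CDCA7 0.79 (adjusted p = 0.0577) and for CDK1 0.55 (adjusted p = 0.301).

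The 2 below 0 were CENPB (-0.93 ± 0.16, SE, adjusted p = 0.00495), which changed sides, and KIF1B (-0.93 ± 0.19, SE, adjusted p = 0.0119), whose difference was 1.29 at 2 days and 0.36 at 3 months. ANLN, CENPB, KIF15, KIF1B and TOP2A kept these calls whichever array was left out. Of the 9 above 0, 3 stayed called without WT replicate 2 at 3 months, 4 without WT replicate 3 at 3 months, 5 without WT replicate 2 at 2 days, 5 without DMD KO replicate 4 at 2 days, 6 without DMD KO replicate 2 or 3 at 2 days or replicate 3 at 3 months, and 8 without WT replicate 1 at 2 days or DMD KO replicate 1 at 3 months, with adjusted p up to 0.0972. Over all probe sets 669 passed above 0 with every array kept. That number was 470 without WT replicate 2 at 3 months, 454 without WT replicate 3 at 3 months and 523 without WT replicate 2 at 2 days. In the proliferation list 13 of 51 passed, all above 0, among them NDC80 (2.38), DLGAP5 (2.37), LMNB1 (1.60) and DNMT1 (1.08). In the brake list CDK4, a kinase of the first gap phase, passed (0.62, adjusted p = 0.0481). The CDK4 call stayed with 2 of the 13 arrays left out in turn and ended without any of the other 11 (adjusted p up to 0.126). All 7 fibroblast markers passed too, with a median of 1.94. Of the satellite cell and myoblast markers 1 of 5 passed above 0, as did 1 of 4 macrophage markers.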

How the data were processed

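RNA of biceps femoris muscle from 13 pigs was hybridised to whole-transcript arrays, 1 per animal. Per the submitters' processing notes, the authors used Affymetrix Power Tools. No version, probe summary or normalization is named in the labels. From their range the deposited values were taken as log2 levels, and no filter or further normalization was applied.

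Of 21893 probe sets 11028 carried 1 symbol, 418 several and 10447 none in the platform annotation; 5 symbols were updated by gene number, and the members had 78 probe sets. For 3 probe sets a member symbol is listed with more than 1 gene, and they were not named. All probe sets were fitted with limma 3.58.1 in R 4.3.3 (4 group means over 13 arrays, 9 residual degrees of freedom), tested two-sided and adjusted by Benjamini-Hochberg over all of them; the code was tested on simulated data. Errors are limma's standard errors, and intervals are 95%. Arrays give no counts, so their number limits the precision.

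Named are up to 20 called members per genotype comparison and 12 per other comparison, at least 2 of each role (highest mean), and up to 8 called genes of each list, of which 1 is not reported here. The members, roles, gene lists, tests and alternatives were chosen with earlier results of these data known. Replicate numbers were not treated as pairs of animals in the reported fit. Same-numbered deviations correlated at -0.495 to 0.33 over 18 pairs, 4 of them over 0.1. Arrays with different numbers were not compared, so this check cannot decide whether the numbers mark pairs. Alternatives refitted each contrast on its own groups, or used trend and robust eBayes, quantile normalization, median centring, a filter on dim probe sets, array weights, the replicate block, a mean over probe sets, a wider member rule, and each array left out. Promoter and protein sequences were not analysed here.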

Additional observations from a re-analysis of the deposited data

Results flagged for a closer look

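The genotype difference changed with age in 11 members, by the interaction test: PCLAF (3.54), TOP2A (2.53), ANLN (2.50), KIF11 (2.47), KIF15 (2.16), NCAPG (2.01), KIF23 (1.58), KIF4A (0.87), KIF20A (0.75), CENPB (-0.93) and KIF1B (-0.93). For CENPB the difference changed sign, with a fall at 3 months and a rise at 2 days that both passed the test.

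In the 4 DMD KO animals at 2 days, 6 of the 75 members had an animal far from the other 3, judged against the range of the 4. A gap can therefore be small in log2 units. Chance puts about 1 in 20 groups on this list, so several of the 75 would be listed by chance alone. The share over all probe sets was not computed. CDC23 stood at 7.20 in replicate 2, against 7.11 to 7.12. CDC25B stood at 7.75 in replicate 3, where the other 3 animals all read 8.01. With such an exact repeat any other value is listed, so the chance rate does not apply to this gene. CDCA3 stood at 7.44 in replicate 2, against 7.49. CENPI stood at 6.39 in replicate 3, against 6.56 to 6.60. CENPT stood at 7.01 in replicate 2, against 7.09 to 7.10. PLK5, a Polo family gene, stood at 7.77 in replicate 2, against 8.23 to 8.26. Of these 6 genes, CENPT alone was called between genotypes at 2 days.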

How the results depend on the processing

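No called gene reversed under any alternative. Of the called members at 2 days, KIF15, KIF4A, KIF1B, CDC14A and CENPQ kept their calls in every alternative that tested them and with every array left out in turn. Left out in turn, single arrays gave 10 to 24 called members at 2 days (22 as reported), 0 to 6 at 3 months (2), 0 to 3 with age in WT (3), 2 to 12 with age in DMD KO (9), 5 to 14 in the interaction (11) and 0 to 1 in both genotype comparisons (0). The same ranges were 6 to 24 (18), 1 to 3 (1), 0 to 4 (1), 1 to 9 (2) and 4 to 20 (13) for the proliferation list, and 1 to 6 (5), 0 to 4 (2), 0 to 2 (1), 0 to 3 (0) and 0 to 1 (1) for the brake list, in the same order of comparisons. Without probe sets below the median level, which leaves out most of the dim members and so their calls, 5 members were called at 2 days, 1 at 3 months, 1 with age in WT, 4 with age in DMD KO and 2 in the interaction, and in the proliferation list 4, then 2 with age in WT, 1 with age in DMD KO and 4 in the interaction; the median over the members at 2 days then lay on the other side of 0, at 0.02 against -0.22. The filter left 31 of the 75 members. Of the 10946 probe sets it left, 1346 were higher and 469 lower at 2 days, a share similar to 5 of 31. Of the 15 falls at 2 days TOP2A alone was left, and the other falls were not tested under the filter. Whether replicate numbers pair the animals could not be decided. With the replicate block the member counts were 5, 0, 0, 2 and 2, the proliferation counts 4 at 2 days, 0 and 1 with age in WT and DMD KO and 1 in the interaction, and the brake counts 1 at 2 days, 0 with age in WT and 0 in the interaction. With array weights the members numbered 5 at 3 months, 10 and 18 with age in WT and DMD KO, 17 in the interaction and 1 in both genotype comparisons; the proliferation list had 2, 11, 13 and 23, and the brake list 2 with age in WT, 2 with age in DMD KO and 0 in the interaction. Fitted on the groups of a contrast alone, 0 members were called at 3 months and 0 with age in WT; the proliferation list had 0, 0 and 13 with age in DMD KO, and the brake list 2 at 2 days, 1 at 3 months, 0 with age in WT and 3 with age in DMD KO. Quantile normalization gave 5 members with age in WT, 2 and 5 proliferation genes with age in WT and DMD KO, and 3, 1 and 0 brake genes at 2 days, at 3 months and in the interaction. Median centring gave 1 member at 3 months, 1 proliferation gene with age in DMD KO and 0 brake genes in the interaction, and trend and robust eBayes gave 1 brake gene at 3 months. Calls over all probe sets shifted too. At 2 days they numbered 538 higher and 197 lower with the replicate block, against 1552 and 623 as reported. With age in WT they numbered 31 higher and 9 lower on the contrast's own groups, against 375 and 258. With age in DMD KO, array weights gave 1535 higher and 1723 lower, against 979 and 781. Apart from the filter, the cause of these shifts was not tested. With 3 or 4 arrays a group, the number of arrays limits what can be detected. For the 22 of the 75 members below the lowest 25th percentile of an array, a change can be understated, which was not tested.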

Other observations

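Some values repeat exactly between arrays. Of the 75 members 19 had the same value on 2 or more arrays (25.3%), as had 7124 of all probe sets (32.5%); the CDC25B level of 8.01 on 3 of the 4 DMD KO arrays at 2 days is an example. No member repeats the values of another probe set.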
